A study of Mus musculus with 4 samples.

Results

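The actin cytoskeleton and focal adhesion genes described here are 37 genes taken by symbol from a deposited table of 22632 genes: 2 actins, 5 myosin chains, 7 tropomyosins, calponins and their relatives, 3 crosslinkers, 6 proteins of filament turnover, 6 of the brush border and membrane, 7 of the adhesion plaque, and the transcription factor gene Srf. A symbol match was found for 36 of them, and Myl12a, listed under an older clone name, was matched by its Ensembl identifier. RNA was sequenced from mouse small intestinal organoids, epithelial cultures grown in Matrigel from whole crypts with EGF, noggin and R-spondin, and harvested 24 hours after seeding. Each of the 4 groups was a single library, so no p-value is given and no difference has a replicate check.

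Yap+/- organoids came from Yap+/fl;VillinCre mice and kept 1 intact copy of Yap1, the gene of the transcriptional co-activator YAP. Yap-/- organoids came from Yapfl/fl;VillinCre mice, in which Cre is made in intestinal epithelium only and both copies are floxed. YapTg organoids came from a line with a wild-type Yap transgene, driven by a reverse tetracycline transactivator that itself depends on Cre, and were grown without doxycycline or with 1.5 mg/ml of it, the concentration as the labels print it. The sources used here do not name the Cre behind the transactivator, the age of the mice or the number of mice pooled. Below, "without doxycycline" and "with it" always mean YapTg organoids, also called uninduced and induced. No culture had doxycycline without the transgene, so the drug and the transgene cannot be told apart.

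Actin filaments are built from actin monomers and are nucleated, crosslinked, cut and pulled on by sets of binding proteins. Crosslinkers, tropomyosins and nonmuscle myosin II make contractile bundles, whose ends are held at focal adhesions by talin, vinculin and integrins. In intestinal epithelium a second actin array, the core bundles of the brush border microvilli, is held together by villin and espin and tied to the membrane by myosin 1A and ezrin. Many actin genes are textbook targets of the transcription factor SRF, which binds the CArG box (CC, then 6 bases that are A or T, then GG). YAP acts through TEAD proteins, whose core site reads GGAATG.

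Promoter sequence from RefSeq (GRCm38.p6) was at hand for 35 of the members. No promoter was found by symbol for Actb and Pxn, so these were not searched. The 35 members had 42 windows, each from 250 bases before to 50 bases after an annotated start. A CArG box on either strand stood in 6 of the 42, belonging to Actg1, Cnn2, Myl9, Srf, Vcl and Vil1, against 535 of all 32851 windows (1.63%). The letters GGAATG, or CATTCC on the other strand, stood in 9 of the 42, belonging to 9 members, and in 14.7% of all windows. A match of letters is a description and not a binding site. The stretches upstream of the start that hold a CArG box are shown first, with the box in capitals, because these members then differ widely in their values. Each is given 5′ to 3′ on the strand of its gene.
Cnn2, chr10:79988519-79988578, plus strand: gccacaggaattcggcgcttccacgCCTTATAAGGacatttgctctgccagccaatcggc
Actg1, chr11:120348551-120348610, minus strand: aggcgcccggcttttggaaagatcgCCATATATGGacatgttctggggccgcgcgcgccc
Vcl, chr14:20929148-20929205, plus strand: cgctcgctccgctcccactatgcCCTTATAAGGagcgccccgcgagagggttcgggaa
Srf, chr17:46556190-46556269, minus strand: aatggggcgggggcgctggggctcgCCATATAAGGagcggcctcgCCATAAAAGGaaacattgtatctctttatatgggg
Vil1, chr1:74409286-74409345, plus strand: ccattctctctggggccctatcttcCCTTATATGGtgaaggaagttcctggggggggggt
Myl9, chr2:156775278-156775337, plus strand: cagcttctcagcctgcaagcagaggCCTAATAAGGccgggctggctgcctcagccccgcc

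The TEAD core letters are shown in capitals for Tagln2, which holds them 2 times, and for Flna and Tpm1, as examples among those called higher in organoids with induced Yap. Of the 9 members with the letters, Actn4 and Myl12a were called higher as well, and Arpc2, Itgb1, Pfn1 and Vcl were not.
Tagln2, chr1:172500103-172500196, plus strand: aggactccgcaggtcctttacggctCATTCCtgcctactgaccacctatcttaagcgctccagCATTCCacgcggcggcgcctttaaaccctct
Flna, chrX:74246650-74246705, minus strand: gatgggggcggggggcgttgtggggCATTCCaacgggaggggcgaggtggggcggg
Tpm1, chr9:67049239-67049294, minus strand: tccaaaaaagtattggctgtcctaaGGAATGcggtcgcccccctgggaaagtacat
Vcl also holds GGAATG, 143 bases before its start. The other members with the letters upstream of the start were Actn4, Arpc2, Itgb1 and Pfn1, and in Myl12a they did not lie wholly before it. The SP1 letters GGGCGG, or CCGCCC, stood in 34 of the 42 member windows, belonging to 31 of the 35 members, and in 35.7% of all windows.

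The library totals behind the values came to between 44934170 and 75269003 reads. Values are RPKM, reads scaled to gene length and to the size of the library, so levels of different genes can be set side by side per length. Folds are ratios of RPKM, and each interval is a 95% exact conditional binomial interval that covers counting error only. A call of higher or lower needed a 2-fold ratio of RPKM + 1, with at least 1 RPKM in the library where the gene was higher. Yap1 was at 16.7 RPKM in Yap+/-, 3.35 in Yap-/-, 25.1 without doxycycline and 1039 RPKM with it, in the order the labels give. Intestinal epithelial markers were present in every library, all 14 at 1 RPKM or more in 3 libraries and 13 in the induced one, where Lgr5 was at 0.910 RPKM. Smooth muscle and myofibroblast markers summed to between 11.0 and 14.3 RPKM over 10 genes, with Des, Lmod1 and Myocd at 0 in all 4 libraries. Fibroblast markers summed to 3.55, 3.63 and 2.52 RPKM over 9 genes in the Yap+/-, Yap-/- and uninduced libraries and 0.459 RPKM in the induced one. Endothelial markers summed to 0.233 RPKM or less over 4 genes. The markers of other cells that reached 1 RPKM anywhere were Mylk, Smtn and Tagln of smooth muscle, Vim of fibroblasts at 3.46 RPKM or less, and Lcp1, Cd52, Lyz2 and Cd68 of immune cells at 5.89 RPKM or less. The part of such cells in the differences below was not tested.

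In organoids with induced Yap the actin cytoskeleton genes were higher as a broad block, except for Vil1, Myo1a and Espn of the brush border. Of the 37 members, 34 reached 1 RPKM in at least 1 library. In induced over uninduced organoids 15 of the 34 were called higher and 0 lower, beside 5.85% of 11108 genes called higher and 5.8% called lower. All but 3 of the 34 were above a ratio of 1, and their median log2 ratio was 0.81, beside -0.04 over all genes. In Yap-/- over Yap+/- organoids 0 members were called in either direction, beside 0.336% of 10710 genes called higher and 0.57% called lower, and the median log2 ratio was -0.06, beside 0.05 over all genes. In whole-culture RNA, more cells of a kind and more RNA per cell cannot be told apart.

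**Figure D1:**
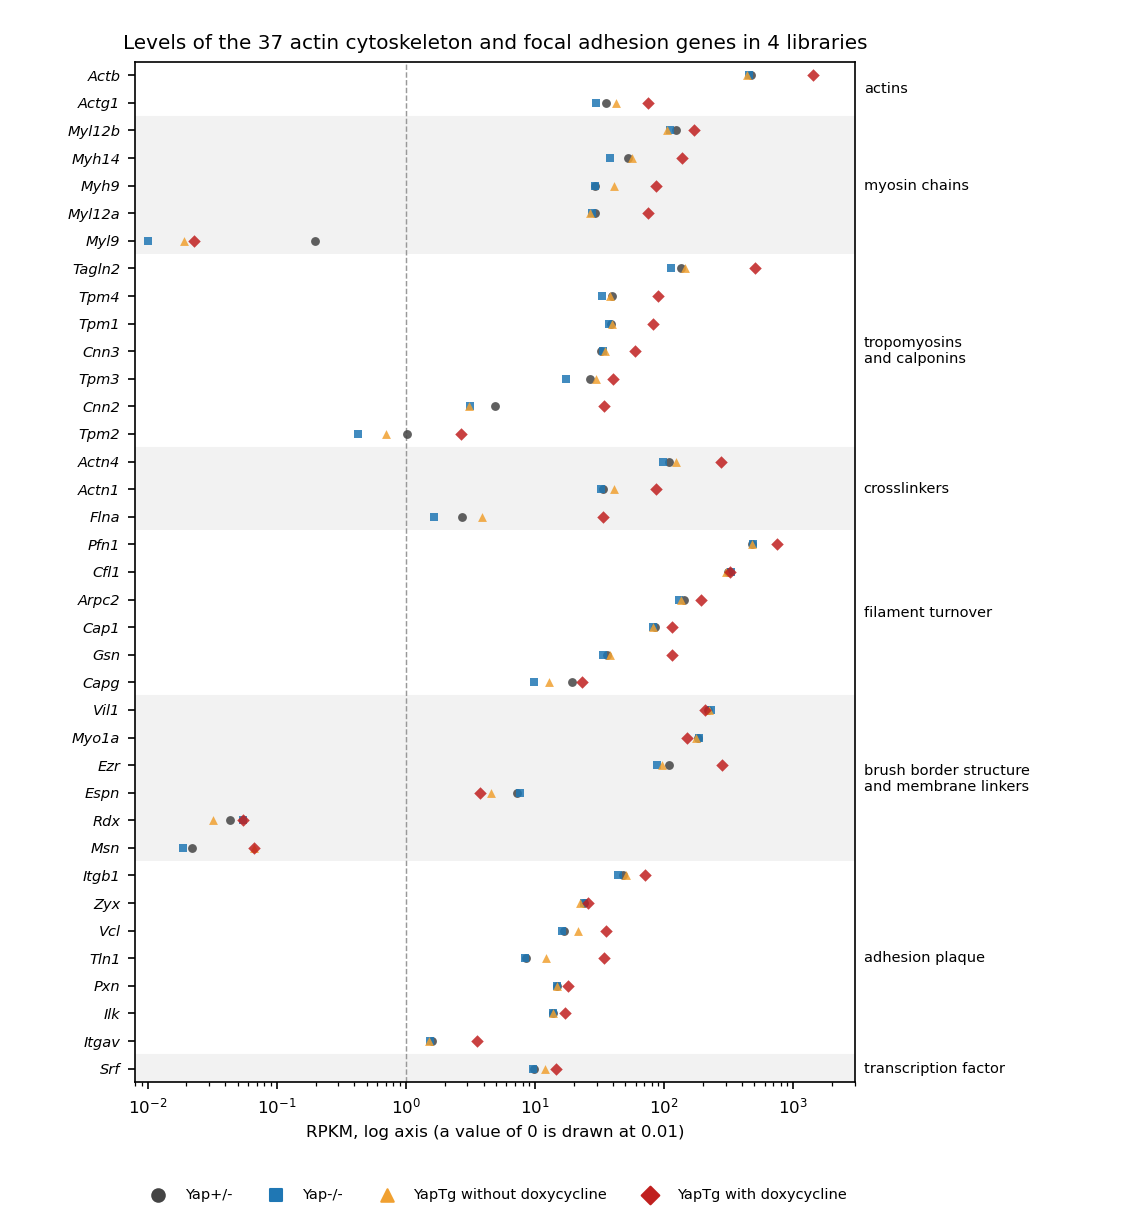
Level of each member in RPKM on a log axis, 1 point per library, grouped by role and ordered by mean level. The induced YapTg library lies to the right of the other 3 for most members, whereas for Vil1, Myo1a and Espn it is the lowest.

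The 2 cytoplasmic actins, which form the filaments themselves, differed in scale and in fold. Actb was at 471 RPKM in Yap+/-, 451 in Yap-/-, 437 without doxycycline and 1413 RPKM with it. The first 3 libraries lay close together and the induced library stood alone, 3.23-fold above the uninduced one (3.20 to 3.26). Actb moved from rank 69 to rank 11 among all genes by RPKM between uninduced and induced organoids. Actg1 was at 35.5 RPKM in Yap+/-, 29.7 in Yap-/-, 42.3 without doxycycline and 75.3 RPKM with it. The induced library was again the highest, by 1.78-fold (1.72 to 1.84), which did not reach the call. Actb thus made up 91.2% of the summed RPKM of both actins in uninduced and 94.9% in induced organoids. Actg1 has many close copies: 56.7% of the 50-base stretches of its longest coding transcript also occur in transcripts of other genes, against 14.2% for Actb. The sources used here do not say how the authors treated reads that match several places, so the level of Actg1 beside Actb is uncertain.

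Nonmuscle myosin II, the motor that pulls on actin bundles, is built from 2 heavy chains and their light chains. Myh14, the heavy chain of myosin IIC, was at 52.8 RPKM in Yap+/-, 38.1 in Yap-/-, 55.9 without doxycycline and 137 RPKM with it. It was 2.45-fold higher with induction (2.41 to 2.49) and 1.39-fold lower without Yap (1.36 to 1.41), so the Yap-/- library was its lowest. Myh9, the heavy chain of myosin IIA, was at 28.9, 29.3, 40.6 and 86.5 RPKM in the same order. It was 2.13-fold higher with induction (2.10 to 2.16), and the Yap+/- and Yap-/- libraries differed by less than counting error. Myh10, the third heavy chain and no member, was at 0.239 RPKM or less in every library. Myh14 carried 64.6% of the summed heavy chain RPKM in Yap+/- organoids, 56.4% in Yap-/-, 57.9% without doxycycline and 61.2% with it.

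The regulatory light chains, whose phosphorylation switches the motor on, were led by Myl12b. It was at 122 RPKM in Yap+/-, 111 in Yap-/-, 106 without doxycycline and 170 RPKM with it, 1.60-fold higher with induction (1.56 to 1.64). Myl12a was at 29.2, 27.6, 26.5 and 75.3 RPKM in the same order. Its fold with induction was larger, 2.84 (2.75 to 2.95), and its share of the light chain sum went from 20.0% to 30.7%. Reads of the pair are hard to place, since 29.2% of the 50-base stretches of the Myl12a transcript also occur in Myl12b. Myl9, the light chain typical of smooth muscle, had 13 reads in Yap+/-, 0 in Yap-/-, 1 without doxycycline and 2 with it. The counting interval of the fold between the first pair began at 3.63-fold lower in Yap-/-, at a level of 0.197 RPKM or less throughout. Smooth muscle markers summed to 12.6 RPKM with 1 copy of Yap and 14.3 RPKM with none, mostly from Mylk at 7.46 and 9.10 RPKM. Acta2, Actg2 and Myh11 had between 0 and 3 reads each in this pair. The part of smooth muscle cells in the Myl9 reads was not tested.

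Calponins and tropomyosins bind along the sides of filaments and steady them, and this group held the member with the largest fold. Cnn2, calponin 2, was at 4.93 RPKM in Yap+/-, 3.12 in Yap-/-, 3.08 without doxycycline and 34.0 RPKM with it. It was 11.1-fold higher with induction (9.91 to 12.4) and 1.58-fold lower without Yap (1.41 to 1.78). The induced library stood far above the others, and Yap+/- above the remaining pair, by 1.60-fold over uninduced organoids. Cnn3, calponin 3, was at 32.4, 33.8, 34.6 and 59.4 RPKM, a fold of 1.72 with induction (1.65 to 1.79). Cnn2 therefore went from 8.16% to 36.4% of the summed calponin RPKM, and Cnn1, the smooth muscle calponin, was at 0.0224 RPKM or less.

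Tagln2, transgelin 2, a small relative of the calponins, was the most abundant gene of this group. It was at 134 RPKM in Yap+/-, 113 in Yap-/-, 145 without doxycycline and 503 RPKM with it. The induced library was 3.48-fold above the uninduced one (3.42 to 3.54), and Yap-/- was the lowest, 1.19-fold under Yap+/- (1.16 to 1.21). Its rank by RPKM went from 259 to 40 with induction.

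The 4 tropomyosin genes differed in level and fold. Tpm4 was at 39.1 RPKM in Yap+/-, 32.9 in Yap-/-, 38.3 without doxycycline and 89.5 RPKM with it, 2.34-fold higher with induction (2.25 to 2.42). Tpm1 was at 38.7, 37.7, 39.2 and 82.3 RPKM in the same order, 2.10-fold higher with induction (2.06 to 2.15). These levels were nearly equal in the first 3 libraries for Tpm1, while for Tpm4 the Yap-/- library was somewhat lower. Tpm2, the tropomyosin of slow muscle and of some epithelia, was at 1.01, 0.426, 0.704 and 2.69 RPKM. Its 3.82-fold difference with induction (3.06 to 4.81) rests on 92 and 589 reads, and it passed the floor of 1 RPKM only through the induced library. In the other pair it passed only through Yap+/-, and was 2.38-fold lower in Yap-/- organoids (1.82 to 3.13), short of the call once 1 RPKM was added. Tpm3 was at 26.6, 17.5, 29.5 and 40.1 RPKM, 1.52-fold lower without Yap (1.47 to 1.56) and 1.36-fold higher with induction, but 62.4% of its 50-base stretches also occur in transcripts of other genes. The summed tropomyosin level was 105 RPKM in Yap+/-, 88.5 in Yap-/-, 108 without doxycycline and 215 RPKM with it, and the share of Tpm3 went from 27.4% to 18.7% with induction.

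**Figure D2:**
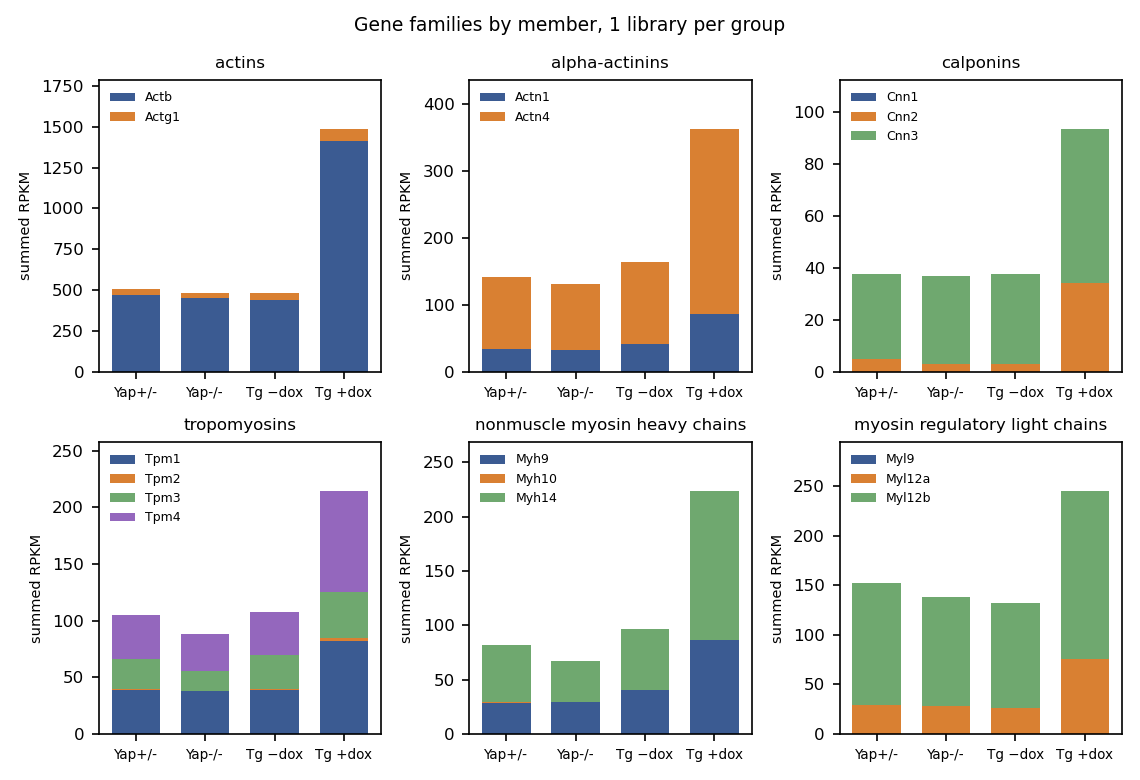
Summed RPKM of 6 gene families in each library, stacked by gene on axes that start at 0; Tg is YapTg and dox is doxycycline. Each family sum is highest with induction, and the share of Cnn2 among calponins is 36.4% there against 8.16% in uninduced organoids.

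Crosslinkers join filaments into bundles and networks, and all 3 members were called higher with induction. Flna, filamin A, which links orthogonal actin networks to membrane receptors, was at 2.72 RPKM in Yap+/-, 1.66 in Yap-/-, 3.91 without doxycycline and 33.6 RPKM with it. It was 8.59-fold higher with induction (8.17 to 9.03) and 1.64-fold lower without Yap (1.51 to 1.78). The induced library was the highest and Yap-/- the lowest.

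The alpha-actinins, which bundle filaments of the stress fibre type, moved closely together. Actn4 was at 109 RPKM in Yap+/-, 98.3 in Yap-/-, 124 without doxycycline and 278 RPKM with it, 2.25-fold higher with induction (2.22 to 2.28). Actn1 was at 33.3, 32.4, 40.8 and 85.8 RPKM in the same order, 2.10-fold higher (2.05 to 2.16). Actn4 kept between 75.2% and 76.5% of their sum in all 4 libraries.

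Genes of filament turnover, which supply monomers and cut or cap filaments, were mostly abundant and showed smaller folds. Pfn1, profilin 1, which loads monomers with ATP, was at 476 RPKM in Yap+/-, 485 in Yap-/-, 479 without doxycycline and 753 RPKM with it. The first 3 libraries were nearly level and the induced library was 1.57-fold above the uninduced one (1.55 to 1.60). Cfl1, cofilin 1, which severs old filaments, was at 314, 327, 303 and 323 RPKM, with the smallest fold above 1 among the 34 members at the floor, 1.07 (1.04 to 1.09). Cap1 and Arpc2, a monomer recycling protein and a subunit of the branching Arp2/3 complex, were 1.41-fold and 1.44-fold higher with induction.

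Within this group the gelsolin family genes Gsn and Capg differed more. Gsn, gelsolin, which severs and caps filaments on calcium, was at 35.8 RPKM in Yap+/-, 33.4 in Yap-/-, 37.8 without doxycycline and 115 RPKM with it. It was the only called gene of its group, 3.06-fold higher with induction (2.97 to 3.15). Capg, which caps without severing, was at 19.3, 9.78, 12.7 and 23.0 RPKM. It had the largest fold below 1 after Tpm2 and Myl9 in Yap-/- organoids, 1.97-fold lower (1.86 to 2.10), and was 1.81-fold higher with induction (1.71 to 1.92). Yap+/- organoids were also 1.52-fold above uninduced ones for Capg (1.42 to 1.62), so the Yap+/- library was high for this gene among those without induction.

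In the brush border group 3 of the 4 members at the floor differed from the rest. Vil1, villin, which bundles and severs the core filaments of microvilli, was at 217 RPKM in Yap+/-, 229 in Yap-/-, 222 without doxycycline and 208 RPKM with it. Myo1a, the motor that ties these bundles to the membrane, was at 182, 185, 176 and 151 RPKM, and Espn, the bundler espin, at 7.26, 7.64, 4.54 and 3.75 RPKM. All 3 were lower with induction, by 1.07-fold for Vil1 (1.05 to 1.08), 1.17-fold for Myo1a (1.15 to 1.19) and 1.21-fold for Espn (1.12 to 1.30), and were the only members at the floor below a ratio of 1. For Espn the gap between the reference libraries was wider, 1.60-fold higher in Yap+/- than in uninduced organoids (1.49 to 1.71). Fabp1, an enterocyte marker, was at 1938 RPKM without doxycycline and 106 RPKM with it, and Krt20, a keratin of differentiated epithelium, was at 159 and 267 RPKM. Of the 14 epithelial markers 7 lay above a ratio of 1 and 7 below, and their part in these levels was not tested.

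Ezrin, radixin and moesin link filaments to membrane proteins, and nearly all of their RPKM came from ezrin. Ezr was at 109 RPKM in Yap+/-, 87.4 in Yap-/-, 96.4 without doxycycline and 279 RPKM with it. It was 2.89-fold higher with induction (2.84 to 2.95) and 1.25-fold lower without Yap (1.22 to 1.27), unlike Vil1, Myo1a and Espn. Msn and Rdx were at 0.0672 RPKM or less in every library, with between 7 and 32 reads each, and Ezr made up at least 99.9% of the sum of the family. Moesin is abundant in fibroblasts, endothelium and blood cells.

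At the adhesion plaque, where integrins meet the filament ends, 1 of 7 members was called higher. Tln1, talin 1, which activates integrins and binds them to actin, was at 8.53 RPKM in Yap+/-, 8.39 in Yap-/-, 12.1 without doxycycline and 33.9 RPKM with it. It was 2.79-fold higher with induction (2.71 to 2.88), and its 2 libraries of the Yap loss pair did not differ beyond counting error. Itgb1, the integrin beta 1 subunit and the most abundant gene of the group, was at 48.3, 43.6, 50.6 and 71.0 RPKM, a log2 ratio of 0.48 with induction on the RPKM + 1 scale. Itgav, the integrin alpha V subunit, was low at 1.60, 1.54, 1.51 and 3.53 RPKM. Its 2.33-fold difference (2.15 to 2.53) fell short of the call on the RPKM + 1 scale, which understates low genes. Vcl, vinculin, which reinforces talin under tension, was at 16.7, 16.2, 21.5 and 35.4 RPKM, a fold of 1.65 (1.60 to 1.70).

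The signalling and scaffold members of the plaque showed the smallest folds of the group. Ilk, Pxn and Zyx, which encode integrin-linked kinase, paxillin and zyxin, were at 13.8, 14.7 and 23.8 RPKM in Yap+/- organoids. They were 1.26-fold, 1.23-fold and 1.17-fold higher with induction. In Yap-/- over Yap+/- organoids the intervals of all 3 included 1, with ratios of 0.998, 1.01 and 1.01.

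Srf itself was at 9.88 RPKM in Yap+/-, 9.67 in Yap-/-, 11.9 without doxycycline and 14.5 RPKM with it. It was 1.21-fold higher with induction (1.15 to 1.28), as large as its gap between the reference libraries, 1.21-fold lower in Yap+/- than in uninduced organoids (1.14 to 1.28). Among the members whose promoter stretches with a CArG box are printed above, the ratios with induction ranged from 11.1 for Cnn2 through 1.78 for Actg1 and 1.65 for Vcl to 0.938 for Vil1. Cnn2 and Vcl hold the same 10 letters in the box, and binding of SRF to these stretches was not tested.

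**Figure D3:**
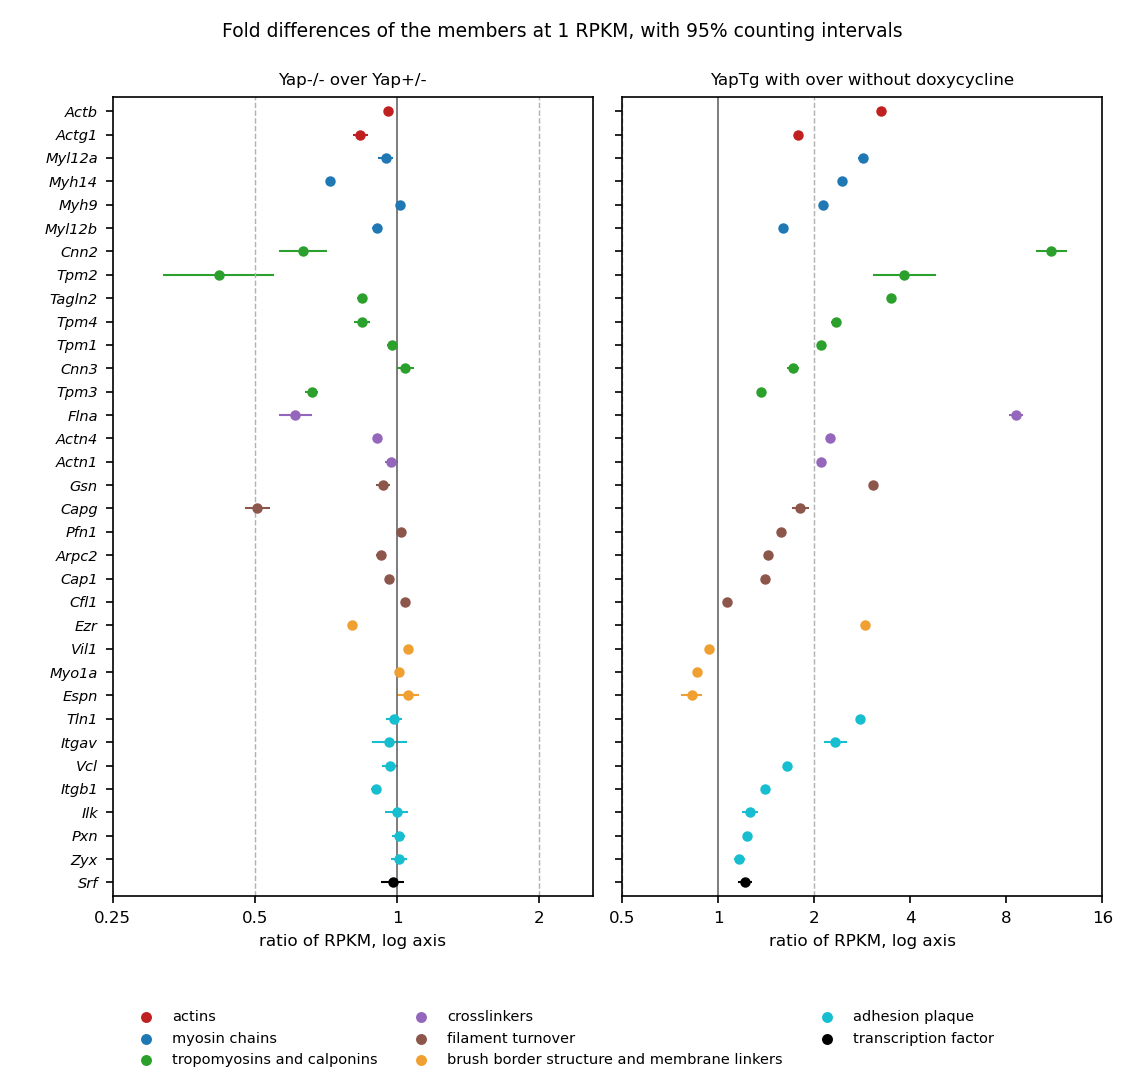
Ratio of RPKM for the 34 members at 1 RPKM, on log axes of different range, for Yap-/- over Yap+/- and for YapTg with over without doxycycline. Bars are 95% counting intervals and dashed lines mark 2-fold; Cnn2 and Flna lie furthest right at 11.1 and 8.59.

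Loss of Yap gave small differences, mostly downward. At 1 RPKM, 25 of the 34 members were below a ratio of 1 in Yap-/- over Yap+/- organoids, beside 3693 of 10710 genes. All 25 were above 1 with induction, but so were 31 of the 34 members, which by itself fixes most of this overlap. Over all genes, 2266 of 10533 (21.5%) had these directions, and 1375 (13.1%) were lower in both comparisons. The 2 comparisons share no library. The counting interval lay below 1 for 19 of the 34 and above 1 for 3, Cfl1, Pfn1 and Vil1, whose largest ratio was 1.06. The same count was not made over all genes. Between the Yap+/- and uninduced libraries the interval lay above 1 for 13 members and below 1 for 15. Myh9, Myo1a, Pfn1, Pxn and Zyx lay so close to 1 that their direction differed between scalings. The members at least 1.5-fold lower by RPKM were Tpm2, Capg, Flna, Cnn2 and Tpm3, chosen here after their values were seen. All 5 were above 1 with induction, as were 31 of the 34 members, with ratios from 1.36 for Tpm3 to 11.1 for Cnn2. Across the 34 members the log2 ratios of the comparisons correlated at r = -0.47, as they did across all 10533 genes.

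**Figure D4:**
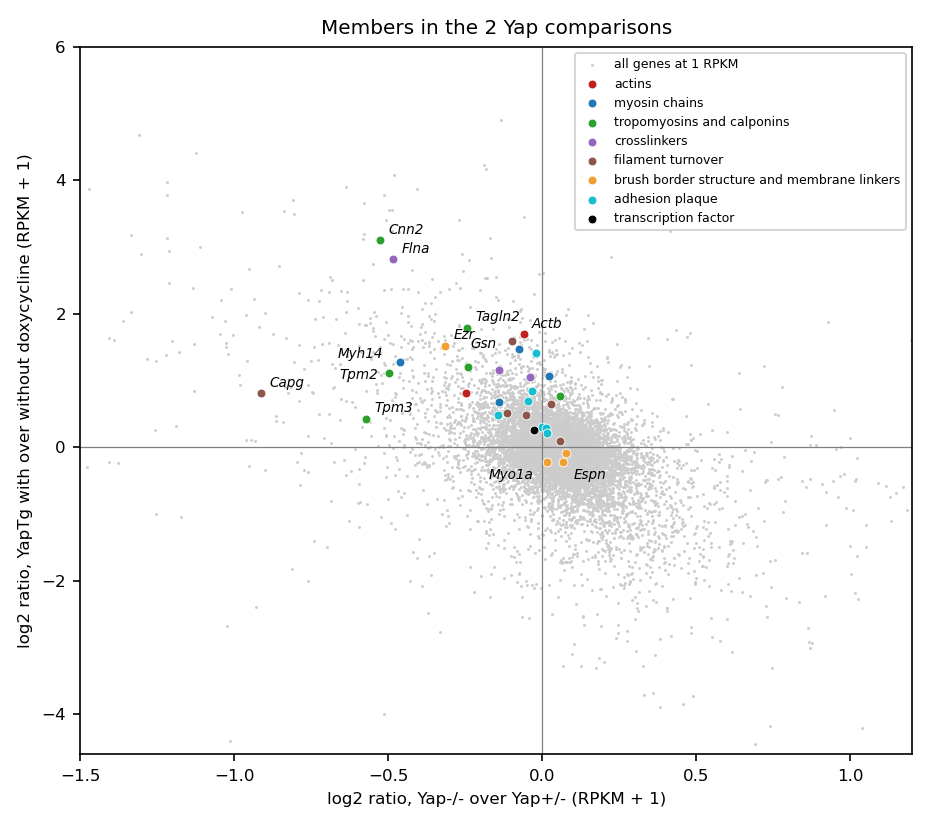
Log2 ratio of RPKM + 1 for Yap-/- over Yap+/- on the horizontal axis and for YapTg with over without doxycycline on the vertical axis, with members coloured by role over all genes in grey (26 genes lie outside the horizontal range). Of the 34 members, 25 lie at the upper left and Vil1, Myo1a and Espn at the lower right.

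The Yap+/- and uninduced YapTg libraries, which come from different lines and share a library with each comparison above, show how far references differ. None of the 34 members was called between them (0 higher and 0 lower), beside 1.11% of 10883 genes called higher and 0.726% called lower in Yap+/-. The members' log2 ratios ran from -0.48 for Myh9 to 0.58 for Espn. The span for loss of Yap, from -0.91 for Capg to 0.08 for Vil1, was of similar width. With induction the span was -0.22 to 3.10, and 15 members passed 1.

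Other genes of the pathway numbered 128 in 7 lists. With induction 23 of the 117 at 1 RPKM were called higher and 2 lower, beside 5.85% and 5.8% of all genes. The same shares of all genes apply to the counts of each list below. The median log2 ratio of the 117 was 0.42, above 0 like that of the members. In Yap-/- organoids 0 of 111 were called in either direction, beside 0.336% of all genes called higher and 0.57% called lower. Their median was 0.01, with 56 above and 55 below 0.

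Arp2/3 subunits and activators, which nucleate branched filaments, had 0 of 15 called with induction and a median of 0.31. The furthest higher were Cttn, cortactin, at 37.1 RPKM without doxycycline and 63.7 RPKM with it, and Wasl, N-WASP, at 25.9 and 41.3 RPKM. The furthest lower were the subunit genes Arpc5l and Arpc3, at ratios of 0.855 and 0.937. No gene of this list reached the call, beside 5.85% of all genes called higher, and 13 of the 15 lay above a ratio of 1.

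Other turnover and capping genes had 3 of 15 called higher and 1 lower, with a median of 0.29. Ssh1, a slingshot phosphatase that activates cofilin, was at 1.69 and 5.62 RPKM, and Cfl2, the second cofilin, at 8.61 and 21.4 RPKM. Add3, an adducin that caps filaments at the spectrin cortex, was 2.75-fold lower at 36.0 and 13.1 RPKM, and Twf1, twinfilin, 1.62-fold lower. Of the list, 13 genes lay above a ratio of 1 and 2 below. Dstn, destrin, a cofilin relative, was at 351 and 430 RPKM and Ssh3, another slingshot, at 18.3 and 19.3 RPKM, both uncalled.

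Other crosslinkers, bundlers and stress fibre genes had 4 of 17 called higher, 1 lower and a median of 0.51. Ahnak, a giant scaffold protein at the membrane, was at 4.55 RPKM in Yap+/-, 2.17 in Yap-/-, 4.86 without doxycycline and 75.4 RPKM with it, 15.5-fold higher (15.0 to 16.0). Flnc, the muscle filamin, was at 0.00700 RPKM without doxycycline and 5.09 RPKM with it, and passed the floor only through the induced library. Lcp1, the plastin of blood cells, was 3.74-fold lower at 3.87 and 1.04 RPKM, and Marcksl1, which binds actin at the membrane, 1.99-fold lower. Lcp1 is also on the immune marker list, whose 7 genes summed to 9.75 RPKM without doxycycline and 8.53 RPKM with it, with Cd52 higher at 2.79 and 5.76 RPKM. Of the 4 immune markers at the floor 3 were below a ratio of 1, with a median log2 ratio of -0.43, and the part of immune cells in Lcp1 was not tested.

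Other brush border genes had 2 of 16 called higher, 0 lower and a median of 0.38. Myo1e, a membrane-linked myosin, was at 11.7 and 34.6 RPKM and Pdzk1, a scaffold of apical transporters, at 7.84 and 22.0 RPKM. Baiap2l2 and Anks4b, which encode a membrane-bending protein and a scaffold of the microvillus tip links, were 1.94-fold and 1.36-fold lower. Of the 16 genes, 12 lay above a ratio of 1 and 4 below, so most genes of this list lay on the other side from Vil1, Myo1a and Espn. Slc9a3r1, an apical scaffold that binds ezrin, was among the uncalled ones above 1, at 138 and 251 RPKM.

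Other adhesion plaque genes had 6 of 24 called higher, 0 lower and a median of 0.65. Itgb6, the epithelial integrin beta 6 subunit, was at 1.52 RPKM in Yap+/-, 0.970 in Yap-/-, 1.59 without doxycycline and 8.59 RPKM with it, 5.40-fold higher (4.93 to 5.93). Tln2, the second talin, was 4.48-fold higher at 1.37 and 6.14 RPKM. Fermt1, kindlin 1, and Nedd9, a docking protein of focal adhesions, were 1.91-fold and 1.92-fold lower. Integrin partners thus lay in both directions, with Tln1 and Tln2 both called higher.

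SRF cofactors and textbook SRF targets outside the members had 4 of 12 called higher, 0 lower and a median of 0.55. Cyr61 and Ctgf, secreted matrix proteins that are targets of YAP as well as SRF, were the furthest higher, at 59.0-fold (49.3 to 71.2) and 162-fold (102 to 273) by RPKM. Ctgf passed the floor only through the induced library, at 0.161 and 26.0 RPKM. The furthest lower were Lima1, at 47.2 and 32.5 RPKM, and the cofactor gene Mkl2, at 6.09 and 4.69 RPKM. The smooth muscle SRF target Tagln was uncalled at 1.52 and 1.83 RPKM. Acta2, at 0 and 0.0448 RPKM, was under the floor and could not be called.

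**Figure D5:**
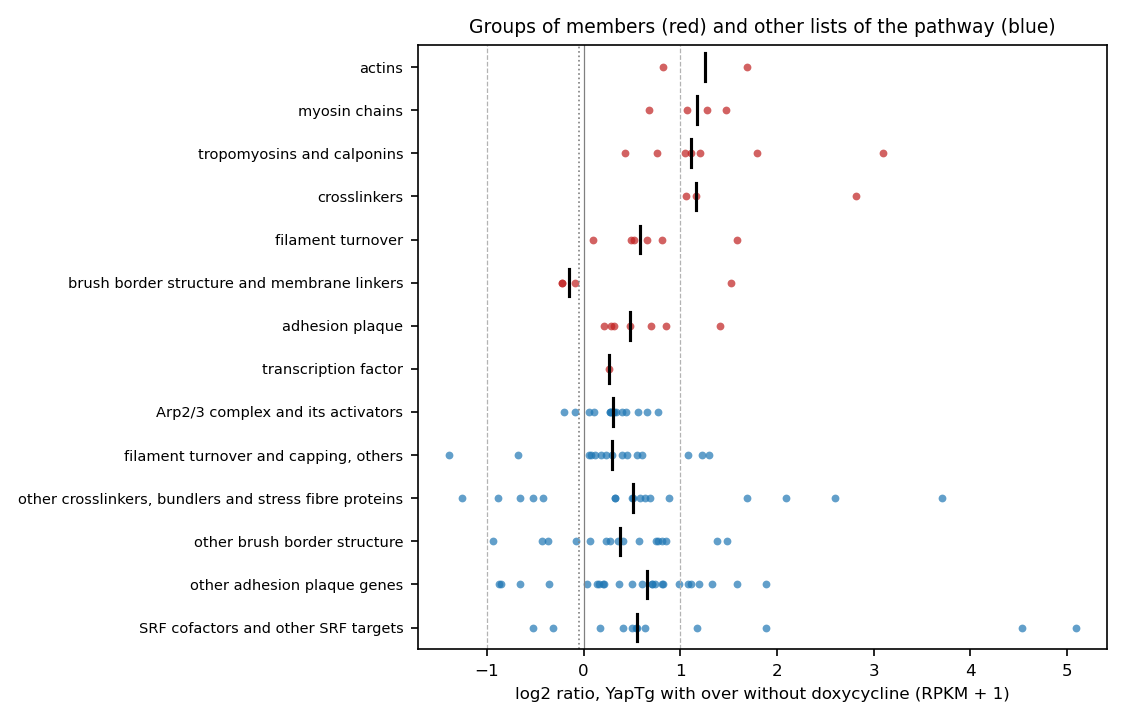
Log2 ratio of RPKM + 1, YapTg with over without doxycycline, for each gene at 1 RPKM, by group of members (red) and by other list (blue). Black bars are medians, the dotted line is the median of all genes at -0.04 and dashed lines mark 2-fold; the brush border group is the only one with a median below 0.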

How the data were processed

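The authors' deposited table gives 1 value per gene and library. The unit was identified as RPKM from the deposited values, since no header names it. The submitters' processing notes name CASAVA 1.8, FastQC, TopHat 1.4.1 and the mm9 build; the sources used here do not give the read counter, annotation, strand setting or treatment of reads with several matches. Coordinates printed are those of RefSeq promoters on GRCm38.p6. All 4 columns were used (0 left out).

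Library totals were solved from gene lengths of GENCODE M21, as the most frequent total that makes reads whole. Each gene's reads were then taken at the shortest length that makes them whole within 0.01 in every library, which gives the widest intervals. Log2 ratios used a pseudocount of 1. Calls needed 2-fold and a floor of 1 RPKM. Intervals are Clopper-Pearson (scipy 1.17.1); PCR copies and mates are not independent, so they cover counting error only. The calculations were tested on simulated counts.

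The members and lists were chosen with earlier results of these data known. Genes printed in full were members past 2-fold, the actins and the most abundant member of each role, and for other lists the 2 highest and 2 lowest ratios with induction; any further gene was picked with its values in view. Of the 7 other lists, 1 is not reported here apart from its part in the totals. The alternatives tried were other pseudocounts (0.1 and 5), a floor of 5 RPKM or none, median-ratio and upper-quartile scaling, thresholds of 1.5-fold and 4-fold, the counting interval alone, and leaving out the most changed member of each role.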

Additional observations from a re-analysis of the deposited data

How the results depend on the processing

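No paired analysis was possible because each group has 1 library. With induction, all 34 members kept their direction under both pseudocounts and both scalings, and the count of 15 called higher stayed within 1.5 times except at a 4-fold threshold (2), without the most changed member of each role (8), and by the counting interval alone (31 higher and 3 lower, also with 0.5 of the reads, an alternative chosen after seeing the data). The median log2 ratio of 0.81 became 0.66 with a pseudocount of 5 and 0.68 without the most changed members. For Yap-/- over Yap+/-, 1 member was called lower with a pseudocount of 0.1 and 1 at a 1.5-fold threshold, and the counting interval alone gave 3 higher and 19 lower (2 and 18 with 0.5 of the reads). The median of -0.06 became -0.11 under median-ratio scaling and -0.11 under upper-quartile scaling. Between the reference libraries the interval alone gave 13 higher and 15 lower (12 and 14 with 0.5 of the reads), and the median of -0.0040 turned to 0.0022 with no floor, 0.12 under median-ratio scaling, 0.096 under upper-quartile scaling and 0.0022 without the most changed members. Median-ratio scaling divided out a log2 factor of -0.12 in that pair, which raised its log2 ratios by that size, and factors of 0.06 for Yap loss and -0.05 for induction, which lowered and raised theirs. The cause of these differences was not tested. At these depths counting error is small for all but Myl9, Msn, Rdx and Tpm2, so the missing replicates and not depth limit the comparisons.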

Other observations

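The 37 members together held 1.05% of the summed RPKM of all genes in Yap+/- organoids, 0.913% in Yap-/-, 1.03% in uninduced and 2.17% in induced YapTg organoids. Among genes of the GENCODE M21 length with 1 to 40 recovered reads, between 62.3% and 65.7% had an even number of reads in the 4 libraries.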
